A study of Mus musculus with 2 samples.

Results

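The circadian clock genes and their outputs comprised 10 genes: Arntl and Clock, which activate the clock, Per1, Per2, Per3, Nr1d1 and Nr1d2, which feed back on it, and Dbp, Tef and Hlf, which carry its rhythm to other genes. They were chosen by name, as the genes whose transcript identifiers are printed on the array, from 20652 genes with a probe and a symbol. All 10 had a probe, 11 probes in total since Dbp had 2, and 9 of the 10 were well above background on both arrays, among 14288 such genes. Per3 was the exception.

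The mice compared had received Ad-378, a virus that by its label overexpresses the microRNA miR-378, or the control adenovirus Ad-Ctrl. Both groups were male mice injected through the tail vein with 1e9 plaque forming units at 8 weeks of age, and the livers of 5 mice per group were pooled into 1 RNA sample and measured on 1 Agilent 1-colour array. The labels' protocols give collection after 2 weeks for both groups, whereas the description of the Ad-378 pool gives 3 weeks and that of the Ad-Ctrl pool 2 weeks, which no source used here settles. By its title the study concerns cholesterol and bile acid synthesis in liver under miR-378, there called responsive to thyroid hormone. The strain, the promoter of the virus and the time of day at which livers were taken are not given in the sources used here, so an hour of collection that differed between the pools and an effect of the virus cannot be told apart. The arrays carry no measurement of miR-378 itself, and Ppargc1b, the gene that hosts it, differed by a log2 value of -0.01.

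In the mammalian clock, ARNTL (also called BMAL1) and CLOCK bind together to E-box sequences and switch on the Per and Cry genes, whose proteins then inhibit them. The same pair switches on Nr1d1 and Nr1d2, whose proteins, the nuclear receptors REV-ERB alpha and beta, repress Arntl at sequences called ROREs that ROR receptors activate. The pair also drives Dbp, Tef and Hlf, transcription factors of the PAR bZIP family, which bind D-box sequences in genes of liver metabolism. In mouse liver the transcripts of Dbp and Nr1d1 swing widely over the day, in near opposite phase to Arntl, while Clock, Tef and Hlf swing less.

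The promoters of the genes are shown first, because the pathway is defined by the sequences that its activators and repressors bind. RefSeq promoter windows on GRCm38.p6 were found for 9 of the 10 genes (14 start sites), each cut to the 250 bases before the start. The letters searched on both strands were the E-box CACGTG, a variant of it called E-prime box CACGTT, the D-box TTATGTAA or TTACGTAA, and the RORE core AGGTCA. No pair of these motifs overlapped in the windows printed here. In the lines that follow, written 5′ to 3′ along each gene, capitals mark every match, read on the opposite strand where a match is given as AACGTG or TGACCT. Dbp is shown as the gene that differed most, Per1, Nr1d1 and Tef as fellow targets of the activators, and Ciart, which encodes another repressor of them, as the gene with the most E-boxes among the clock genes searched.
Dbp, chr7:45704997-45705246, plus strand: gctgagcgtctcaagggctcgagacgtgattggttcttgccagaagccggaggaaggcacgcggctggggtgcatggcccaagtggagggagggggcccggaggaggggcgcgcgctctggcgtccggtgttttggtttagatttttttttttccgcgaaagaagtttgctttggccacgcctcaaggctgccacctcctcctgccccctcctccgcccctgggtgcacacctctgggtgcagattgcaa
Per1, first start, chr11:69098699-69098948, plus strand: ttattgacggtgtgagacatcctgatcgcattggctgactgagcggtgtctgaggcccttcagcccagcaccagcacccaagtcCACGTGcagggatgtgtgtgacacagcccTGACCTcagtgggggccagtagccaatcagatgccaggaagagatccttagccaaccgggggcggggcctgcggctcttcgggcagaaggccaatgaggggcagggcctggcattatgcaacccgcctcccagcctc
Nr1d1, chr11:98775378-98775627, minus strand: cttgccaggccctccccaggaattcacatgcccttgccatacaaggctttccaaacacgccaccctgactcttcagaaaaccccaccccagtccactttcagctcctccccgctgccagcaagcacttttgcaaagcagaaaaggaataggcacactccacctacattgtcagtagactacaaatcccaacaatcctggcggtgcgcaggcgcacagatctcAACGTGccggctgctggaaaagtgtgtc
Tef, first start, chr15:81802423-81802672, plus strand: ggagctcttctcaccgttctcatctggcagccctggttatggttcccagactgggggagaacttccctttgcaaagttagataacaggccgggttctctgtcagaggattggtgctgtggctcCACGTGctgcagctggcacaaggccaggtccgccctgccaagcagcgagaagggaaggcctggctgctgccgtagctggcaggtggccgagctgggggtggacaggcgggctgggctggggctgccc
Ciart, chr3:95882229-95882478, minus strand: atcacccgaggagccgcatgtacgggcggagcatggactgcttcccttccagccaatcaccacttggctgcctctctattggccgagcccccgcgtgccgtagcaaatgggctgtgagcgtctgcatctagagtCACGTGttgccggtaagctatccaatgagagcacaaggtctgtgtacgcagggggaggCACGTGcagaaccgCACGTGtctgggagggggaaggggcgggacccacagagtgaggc
In Per1 the E-box began 166 bases before the start and a RORE core 137 bases before it. In Tef an E-box began 127 bases before the first start and another 138 bases before its other start. Nr1d1 held an E-prime box 28 bases before the start, and Ciart held E-boxes at 116, 58 and 44 bases before the start. The Dbp window held none of the letters searched. E-boxes described for mouse Dbp also lie in its introns, which the window does not cover. Among the other members, Per3 held D-boxes at 205 and 158 bases, Nr1d2 a RORE core at 77 bases and the Clock start numbered 3 a RORE core at 119 bases, while the windows of Arntl and Hlf held no match. Across 32851 RefSeq windows of the same length, 6.02% held the E-box, 3.85% the E-prime box, 0.931% the D-box and 14% the RORE core, so a RORE core is common by letters alone.

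The value of a gene below is its processed signal, the background-subtracted brightness of its spot, given first as scanned. A scaled value is log2 of that signal minus log2 of the array's 75th percentile, which was a signal of 695 in Ad-378 and 800 in Ad-Ctrl, and a difference is the scaled value in Ad-378 minus that in Ad-Ctrl. Of 43020 gene spots per array, 65.7% in Ad-378 and 63.1% in Ad-Ctrl were well above background, 0 were saturated, and the log2 signals of the 2 arrays correlated at r = 0.980 across genes, which share the same 2 pools. A single array per group gives no replicate spread and allows no test, so genes were counted at a 2-fold difference. Ranges in parentheses are 95% ranges from the scanner's own error, about 0.20 log2 units per difference, and cover measurement on the array only, not mice. All measured genes had a median difference of 0.04.

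Of the 9 clock genes measured, Dbp passed 2-fold upward in Ad-378 and 0 passed it downward. By the same rule 2.83% of the 14288 genes were higher, 4.52% were lower and 7.36% passed in either direction. The 9 genes divided by sign into 5 positive differences (Per2, Nr1d1, Dbp, Tef and Hlf) and 4 negative ones (Arntl, Clock, Per1 and Nr1d2), with a median of 0.23. Differences lay above the 95% scanner range in 3 of them (Nr1d1, Dbp and Hlf) and below it in Clock and Per1, where 16.3% and 17.7% of all genes lay above and below it. The count past 2-fold is thus a single gene, against a background of 7.36% of genes.

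**Figure D1:**
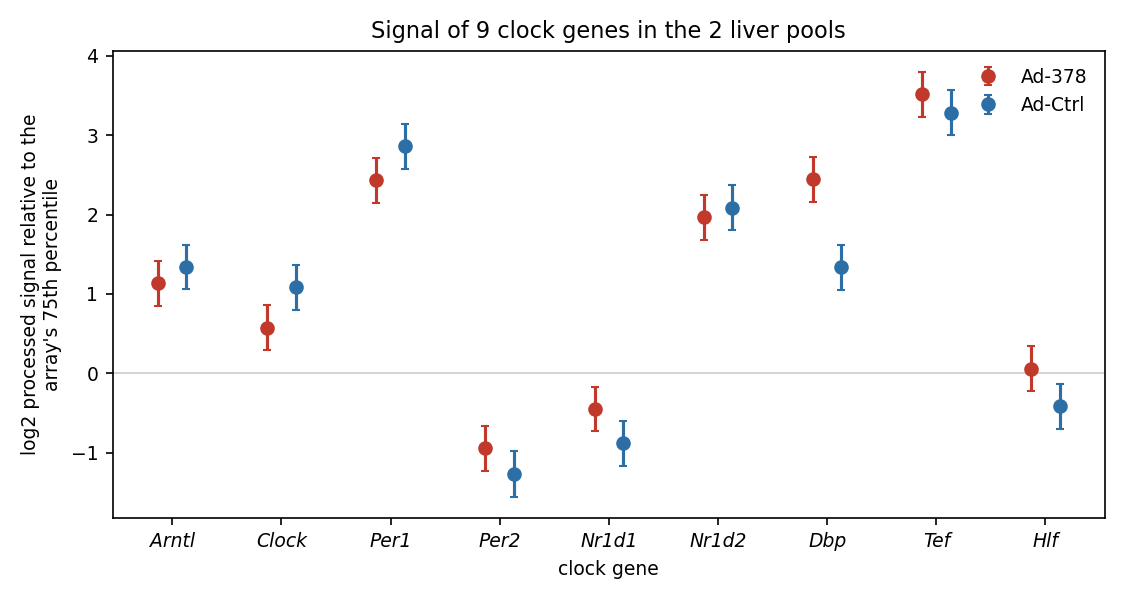
Scaled log2 signal of the 9 measured clock genes, Ad-378 in red left of Ad-Ctrl in blue, with 1 array per group and bars for the 95% scanner error of each array. Dbp is the gene whose bars stand furthest apart, at 2.45 in Ad-378 and 1.33 in Ad-Ctrl, while the activators Arntl and Clock sit lower in Ad-378.

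The activators both lay lower in the Ad-378 pool, by less than 2-fold. Clock, which encodes the DNA-binding partner of ARNTL, had a signal of 1036 in Ad-378 and 1694 in Ad-Ctrl, or scaled values of 0.57 in Ad-378 and 1.08 in Ad-Ctrl. Its difference was -0.51 (-0.91 to -0.11), a 1.42-fold lower signal, and 14.4% of all genes had a lower difference. Arntl, the activator without which the clock stops in mice, had 1528 in Ad-378 and 2025 in Ad-Ctrl, or scaled values of 1.14 in Ad-378 and 1.34 in Ad-Ctrl. Its difference of -0.20 (-0.60 to 0.20) lay within the scanner range. The paralogs that can stand in for them were dim: Npas2, a relative of Clock, was not well above background on either array, and Arntl2, a relative of Arntl, passed on the Ad-378 array only, with a bound of at least 1.24-fold. That bound leaves out the scanner error of the difference, which was 0.83 log2 units. The other Arntl2 probe was not well above background on either array.

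The targets of the activators, taken as the 8 other members, gave 7 measured genes with 5 positive and 2 negative differences and a median of 0.32. The measured Per genes differed in sign from each other, as did the REV-ERB receptors in the reported setting, while Dbp, Tef and Hlf were all positive.

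Per1, a repressor that hormones such as glucocorticoids also switch on within hours, had 3753 in Ad-378 and 5806 in Ad-Ctrl, or scaled values of 2.43 in Ad-378 and 2.86 in Ad-Ctrl. Its difference was -0.43 (-0.83 to -0.03), 1.34-fold lower. Per2, a repressor whose loss shortens the clock in mice, had the opposite sign. Its signal was 360 in Ad-378 and 332 in Ad-Ctrl, or scaled values of -0.95 in Ad-378 and -1.27 in Ad-Ctrl, a difference of 0.32 (-0.08 to 0.73). The gap between the Per2 and Per1 differences was 0.75, with a scanner error of 0.29, and ranged between 0.35 and 0.86 across the alternative settings. Per3, the Per gene least needed for rhythm in mice, had signals of 5.13 in Ad-378 and 5.66 in Ad-Ctrl, not well above background on either array, so no fold is given.

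Among the REV-ERB receptors, Nr1d1 was higher, with 509 in Ad-378 against 433 in Ad-Ctrl, or scaled values of -0.45 in Ad-378 and -0.88 in Ad-Ctrl. The difference was 0.43 (0.03 to 0.83), or 1.35-fold. Nr1d2 had 2713 in Ad-378 and 3401 in Ad-Ctrl, or scaled values of 1.96 in Ad-378 and 2.09 in Ad-Ctrl, a difference of -0.12 (-0.52 to 0.28) that turned to 0.08 under normexp correction with the local background. Nr1d1 thus differed from its paralog by 0.56, which shrank to 0.12 under that correction, against a scanner error of 0.29. The difference of Nr1d1, the repressor of Arntl, exceeded that of Arntl by 0.64 (0.28 to 0.71 across settings).

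The PAR bZIP factors lay higher in the Ad-378 pool, all 3 of them, and Dbp was the one past 2-fold. Dbp had a signal of 3786 in Ad-378 and 2018 in Ad-Ctrl, or scaled values of 2.45 in Ad-378 and 1.33 in Ad-Ctrl. Its difference was 1.11 (0.71 to 1.51), or 2.16-fold, and 2.18% of all genes had a higher difference. Another probe for the same RefSeq transcript gave 3740 in Ad-378 and 1950 in Ad-Ctrl, 2.21-fold. The scanned signals before scaling stood at ratios of 1.88 and 1.92 (Ad-378 over Ad-Ctrl) at the 2 probes, so the 2-fold mark was passed after each array was scaled. Across the 8 alternative settings the difference of Dbp lay between 1.03 and 1.20, while its scanner range reaches below 2-fold.

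Hlf, the PAR bZIP factor known in humans from a leukaemia fusion, had 724 in Ad-378 and 599 in Ad-Ctrl, or scaled values of 0.06 in Ad-378 and -0.42 in Ad-Ctrl. Its difference was 0.48 (0.08 to 0.88), or 1.39-fold, and 13.2% of all genes had a higher difference. Tef, first described in the pituitary as an activator of the thyrotropin beta gene, had 7947 in Ad-378 and 7795 in Ad-Ctrl, or scaled values of 3.51 in Ad-378 and 3.28 in Ad-Ctrl. Its difference of 0.23 (-0.17 to 0.63) lay within the scanner range. The median of the 3 factors was 0.48, and the sum of their scaled signals, in multiples of the 75th percentile, was 17.9 in Ad-378 and 13.0 in Ad-Ctrl. Most of both sums came from Tef, whose scanned signals before scaling stood at a ratio of 1.02 (Ad-378 over Ad-Ctrl).

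**Figure D2:**
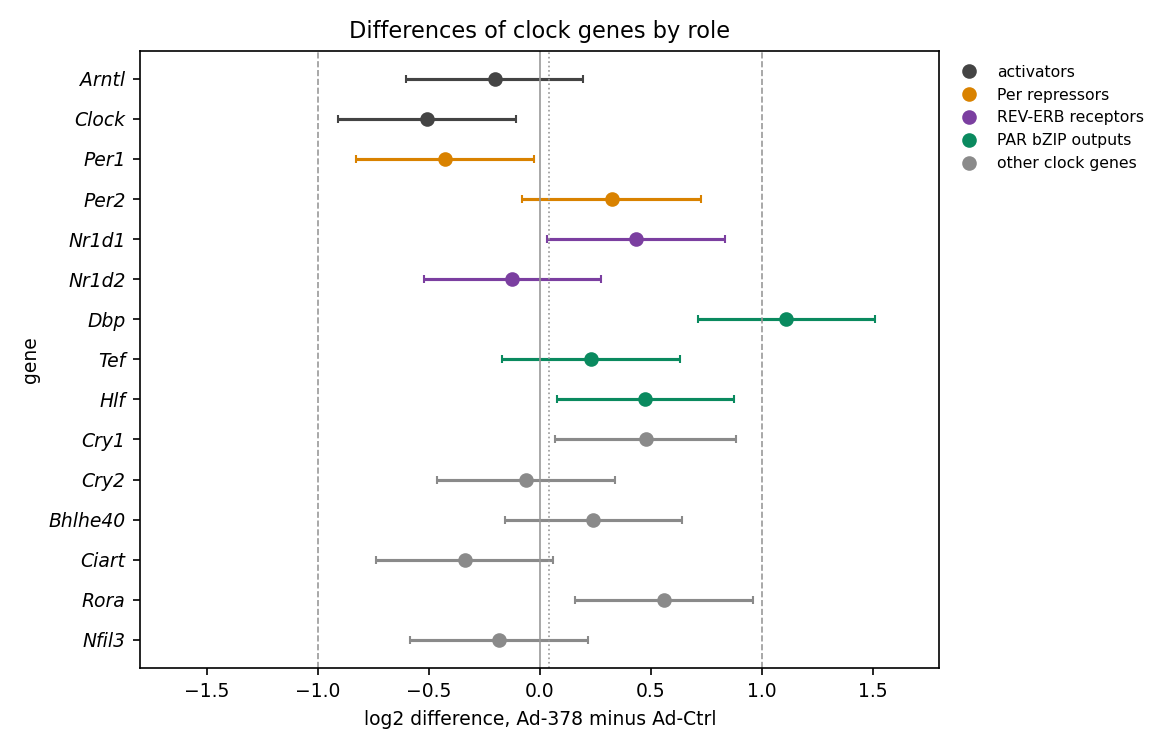
Log2 difference, Ad-378 minus Ad-Ctrl, of the clock genes in order of role, with bars for the 95% scanner range, dashed lines at 2-fold and a dotted line at the median of all genes. Dbp at 1.11 is the gene past the line, Clock at -0.51 is the lowest, and Rora at 0.56 is the highest of the other clock genes shown.

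**Figure D3:**
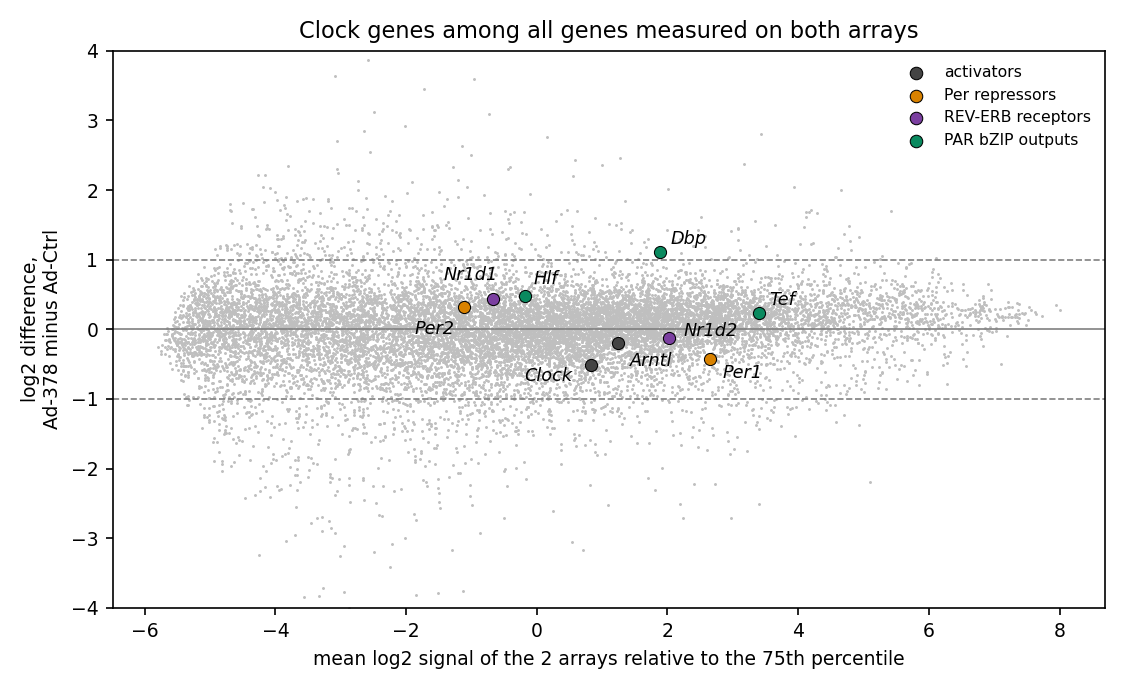
Log2 difference, Ad-378 minus Ad-Ctrl, of 14288 genes (grey) against the mean scaled log2 signal of both arrays, with the 9 clock genes coloured by role and dashed lines at 2-fold; 9 genes lie outside the plotted range of differences. Dbp lies above the upper line at 1.11 and the other 8 clock genes lie inside the cloud.

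Comparing genes within the same pair of arrays removes the scaling constant. The difference of Dbp exceeded that of Clock by 1.62, that of Arntl by 1.31 and that of Per1 by 1.54, each with a scanner error of 0.29. Dbp had the highest and Clock the lowest difference of the measured clock genes, so their gap is the widest among them by choice. Across the alternative settings these gaps lay between 1.52 and 1.63, 1.28 and 1.33, and 1.46 and 1.56. Scaling to detected probes and dropping the background filter left them unchanged, so those settings add nothing here. Dbp also exceeded its relatives, Tef by 0.88 and Hlf by 0.64 (0.56 to 0.79 across settings). Per1 exceeded Clock by 0.08, well inside the scanner error.

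The other repressors of the E-box activators showed no shared sign, with 4 of 5 measured, 2 of them positive and 2 negative. Cry1, the strongest repressor of the activators, had 152 in Ad-378 and 126 in Ad-Ctrl, a difference of 0.48 (0.07 to 0.88) that turned to -0.17 under normexp correction with the local background. Cry2, its paralog, had 3790 in Ad-378 and 4551 in Ad-Ctrl, a difference of -0.06 that turned to 0.15 under the same correction. Ciart, which encodes the repressor CHRONO and carried the E-boxes printed above, had 724 in Ad-378 and 1054 in Ad-Ctrl, a difference of -0.34 (-0.74 to 0.06). Dbp exceeded Ciart by 1.45. Bhlhe40, encoding the repressor DEC1, had 1567 in Ad-378 and 1525 in Ad-Ctrl, a difference of 0.24, and its paralog Bhlhe41 was not well above background on either array.

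The factors that bind ROREs and D-boxes differed in sign. Rora, a receptor that activates Arntl at ROREs, had 1447 in Ad-378 and 1131 in Ad-Ctrl, a difference of 0.56 (0.16 to 0.96). A bound, as given for Arntl2, sets the signal in Ad-378 against the dimmest signal called above background, or the gene's own where higher, in Ad-Ctrl. Rorb, a related receptor, at 18.5 in Ad-378 and 11.2 in Ad-Ctrl, passed background in Ad-378 only and gave a bound of at least 1.40-fold. This bound too leaves out the scanner error, 0.55 log2 units for the difference. The other Rorb probe was not well above background on either array. Nfil3, encoding E4BP4, which represses the D-boxes that DBP activates, had 2789 in Ad-378 and 3647 in Ad-Ctrl, a difference of -0.18 (-0.58 to 0.22), and Dbp exceeded it by 1.29.

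The kinases, ubiquitin ligases and other regulators that act on clock proteins were all measured, 12 of 12. They gave 3 positive and 9 negative differences and a median of -0.15. Past 2-fold in either direction were 0 of them, where 7.36% of all genes were. The lowest was Usp2, a deubiquitinase with a rhythmic transcript in liver, at 2663 in Ad-378 and 5225 in Ad-Ctrl, a difference of -0.77 (-1.17 to -0.37). The highest was Csnk2a1, a catalytic subunit of casein kinase 2, at 0.33 (-0.07 to 0.73), within the scanner range. Other Csnk2a1 probes, from brightest to dimmest, differed by -0.08, 0.56 and 0.26.

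Of 25 rhythmic liver outputs, 23 were measured, with 12 positive and 11 negative differences and a median of 0.01, a value whose sign turned under 4 of the 8 alternatives. At least 2-fold higher were 2 of them and at least 2-fold lower was 1, where 2.83% and 4.52% of all genes were. Elovl3, a fatty acid elongase with a daily rhythm in the liver of male mice, had 14220 in Ad-378 and 3173 in Ad-Ctrl, a difference of 2.37 (1.97 to 2.77) or 5.16-fold. Leap2, encoding a liver peptide that blocks the ghrelin receptor, had 6564 in Ad-378 and 2996 in Ad-Ctrl, a difference of 1.33 (0.93 to 1.73) or 2.52-fold. Rgs16, a regulator of G protein signalling with a daily rhythm in mouse liver, had 534 in Ad-378 and 1355 in Ad-Ctrl, a difference of -1.14 (-1.54 to -0.74), and -0.92 under normexp correction with the local background. Genes described as PAR bZIP targets in mouse liver and picked here for that role after their values were seen did not share 1 value: Alas1, the first enzyme of haem synthesis, differed by 0.80, Nr1i3, the drug sensor CAR, by 0.34, and Por, the electron donor of cytochromes P450, by -0.03. Another, dimmer Alas1 probe had 2202 in Ad-378 and 1170 in Ad-Ctrl, 2.17-fold.

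Since Per1 also responds to glucocorticoids, 8 genes that these hormones induce were read beside it. All 8 were measured, 7 with a negative difference, with a median of -0.45, and 2 were at least 2-fold lower in Ad-378, where 4.52% of all genes were. Differences lay below the 95% scanner range in 5 of the 8, where 17.7% of all genes did. That of Mt1, at -0.10, turned to 0.14 under normexp correction with the local background. Of all 14288 genes, 6591 had a negative difference. Under normexp correction with the local background Sgk1 alone stayed past 2-fold, and under loess normalization Tsc22d3, a glucocorticoid-induced leucine zipper gene, passed it as well at -1.01. Sgk1, a kinase of salt and stress responses, had 5146 in Ad-378 and 14309 in Ad-Ctrl, a difference of -1.27 (-1.67 to -0.87). Dusp1, a phosphatase that switches off MAP kinases, had 3647 in Ad-378 and 8839 in Ad-Ctrl, a difference of -1.07 (-1.47 to -0.67), and -0.89 under normexp correction with the local background. Tat, a liver enzyme of tyrosine breakdown, was the highest at 0.14, and its sign turned under quantile and loess normalization. Their part in the value of Per1 was not tested.

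**Figure D4:**
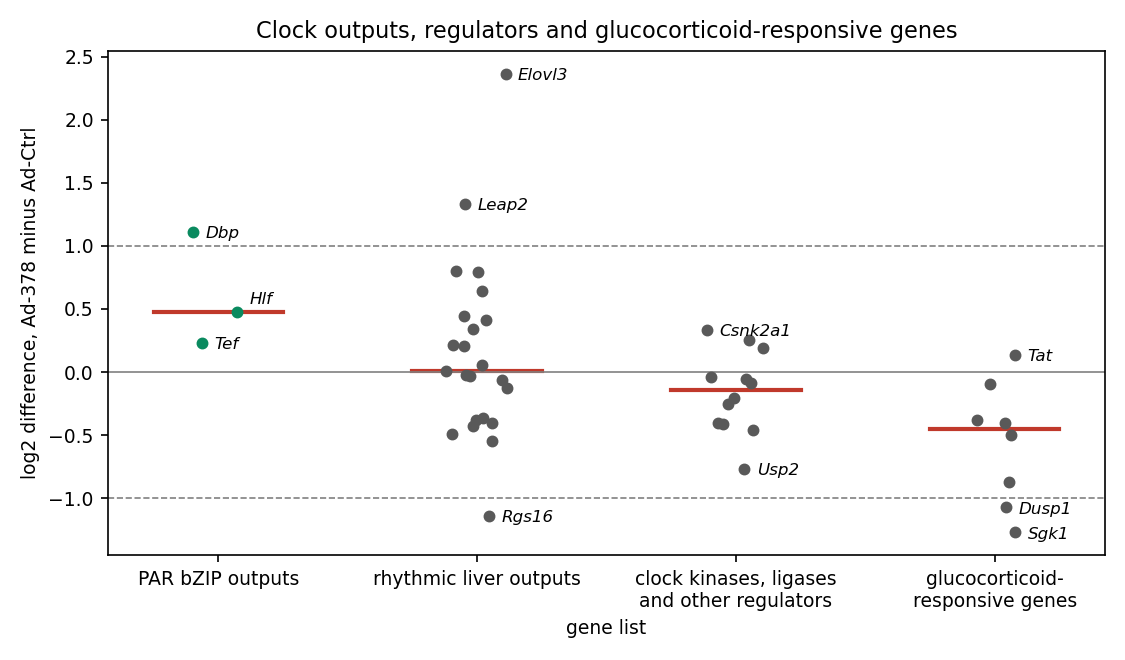
Log2 difference, Ad-378 minus Ad-Ctrl, of each measured gene in 4 lists, with a red bar at the median of the list and dashed lines at 2-fold. The PAR bZIP factors lie above 0, the rhythmic outputs spread on both sides between -1.14 and 2.37, and 7 of 8 glucocorticoid-responsive genes lie below 0.

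The tissue label was checked against markers, and all 8 hepatocyte markers were measured, with summed scaled signals of 999.8 in Ad-378 and 893 in Ad-Ctrl. Their median difference of 0.17 turned to -0.01 under quantile and -0.03 under loess normalization. The Kupffer cell and macrophage markers (7 of 8 measured, all negative) summed to 52.3 in Ad-378 and 100.1 in Ad-Ctrl, the stellate cell and fibroblast markers (7 of 8, all negative) to 38.5 in Ad-378 and 75.3 in Ad-Ctrl, and the sinusoidal endothelium markers (7 of 7, 6 negative) to 41.9 in Ad-378 and 50.4 in Ad-Ctrl. Cholangiocyte markers (4 of 5 measured, 3 positive and 1 negative) summed to 8.14 in Ad-378 and 3.52 in Ad-Ctrl, most of both sums coming from Spp1, and their median of 0.67 turned to -0.19 under normexp correction with the local background. T and NK cell markers (6 of 6, 3 positive and 3 negative) summed to 11.8 in Ad-378 and 11.3 in Ad-Ctrl, with a median of -0.20. At least 2-fold lower were 2 of them, where 4.52% of all genes were. Most of both sums came from Nkg7 and Cd4. Another Nkg7 probe differed by -0.97, another Cd4 probe was not well above background on either array, and the median was -0.45 under the mean over probes. B cell markers (3 of 4, all positive) summed to 0.41 in Ad-378 and 0.28 in Ad-Ctrl, and their median of 0.57 turned to -0.73 under that correction. Erythroid markers (4 of 5, 2 positive and 2 negative) summed to 48.4 in Ad-378 and 47.1 in Ad-Ctrl, and Alas2 among them was 4.04-fold higher, with a signal of 5627 in Ad-378 and 1603 in Ad-Ctrl. Des, Krt7 and Cd79a were not well above background on either array. In bulk tissue, fewer cells of a type and less RNA per cell cannot be told apart. Clock genes are expressed in most cell types, and the part of cell makeup in their values was not tested.

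The clock gene values were then read under 8 alternative settings of scaling, background correction, probe choice and filter. Of the 9 measured clock genes, 8 kept their sign in all of them and Nr1d2 did not. The count past 2-fold stayed at 1 higher, Dbp, and 0 lower in each of the 8 settings. Some of these settings could hardly move the genes, so their agreement adds little. Dropping the background filter left all 9 at their reported values, and averaging probes altered Dbp alone. Scaling to the percentile of detected probes shifted all 9 by the same amount. The correction with the local background pulled the dimmer genes Per2 and Nr1d1 to 0.09 and 0.20, and raised Tef to 0.43.

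**Figure D5:**
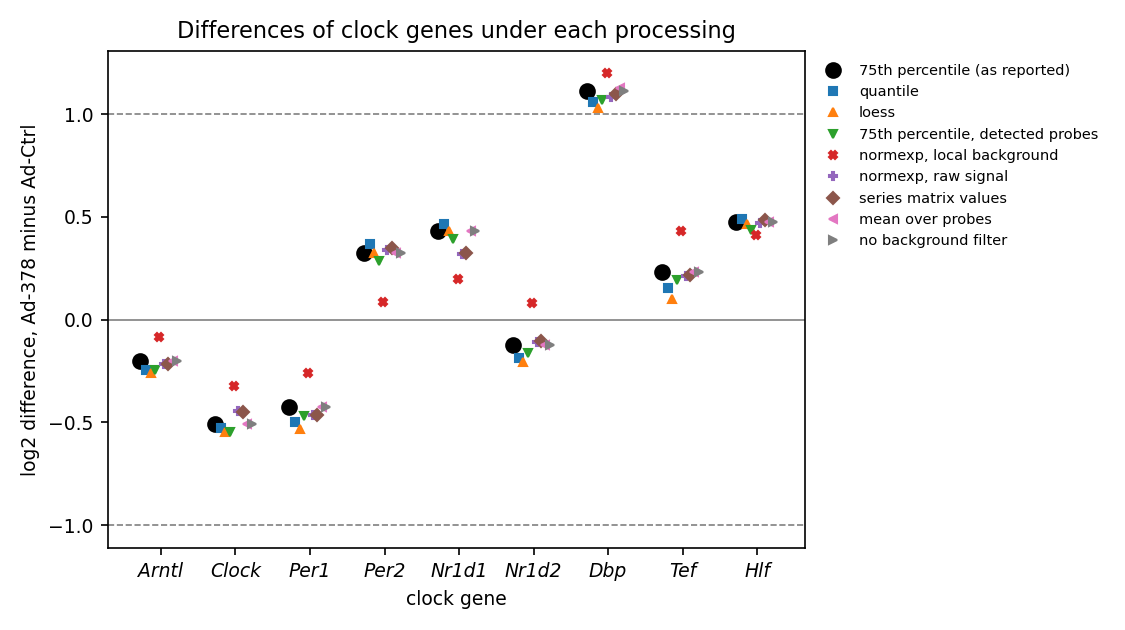
Log2 difference, Ad-378 minus Ad-Ctrl, of the 9 measured clock genes under the reported setting (black) and the 8 alternatives, with dashed lines at 2-fold. Dbp stays between 1.03 and 1.20, above the line in each, and Nr1d2 crosses 0 under normexp with local background.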

How the data were processed

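Liver RNA was read from the deposited scanner files of 2 arrays, 1 per group. The deposited values are linear spot intensities, which per the file headers had been background-subtracted and detrended within each array. Deposited flags for background, saturation and outliers are other values of 0 or 1. Feature Extraction of Agilent was version 9.1 per the submitters' processing notes and 11.0.1.1 per the file headers. Per the labels' protocols, 0.5 micrograms of RNA were labelled with Cy3, and the extraction protocol describes a blood RNA kit with globin removal although the tissue is liver. The deposited series matrix intensities equal the raw median signal in 100% of values.

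Control spots and 123 outlier gene spots per array were left out. Values are log2 processed signals less log2 of the array's 75th percentile over probes. Identifiers, without versions, matched 1 RefSeq symbol (GRCm38.p6) for 27219 of 39401 probes and none for 12182; Tars1 is read as Tars. A gene's value came from its brightest probe among those detected on both arrays. The headers name build mm9, so array positions were not used here; promoter windows are RefSeq's. The members and lists were chosen with earlier results of these data known. Named were all members, all genes of the short clock lists except 1 that is not reported here, and of longer lists those at least 2-fold apart plus the highest and lowest; other genes of those lists that the text names were chosen after their values were seen.

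No test was run. Alternatives were quantile and loess normalization (span 0.3), the percentile over detected probes, normexp correction (offset 50) with the local background, series matrix values, the mean over probes, no background filter, and 1.5-fold and 3-fold thresholds; normexp on the raw signal was added after seeing the data. On simulated arrays for this comparison (14635 genes), 100% of genes planted at log2 differences of 1.5 and of 2.5 passed 2-fold, and 0.111% of unchanged genes did. Both simulated arrays were made from the Ad-Ctrl array by adding its scanner error and a constant offset. Variation between mice, pools or hybridizations was not simulated, so 0.111% is not an error rate of the real comparison. The smaller planted difference, 1.5, is above that of Dbp, 1.11. Tools were Python 3.11.15, numpy 2.4.6, pandas 2.3.3, statsmodels 0.14.6, R 4.3.3 and limma 3.58.1. The number of arrays limits the precision.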

Additional observations from a re-analysis of the deposited data

How the results depend on the processing

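Each group was 1 pool on 1 array, so nothing here measures the spread between mice. Among the 9 measured clock genes, the count at least 2-fold higher was 1 and the count lower was 0 under each of the 8 alternatives and at 1.5-fold, and the higher count was 0 at 3-fold. The median of the 9 lay between 0.09 and 0.23. The 59 measured genes of the clock, rhythmic output and glucocorticoid-responsive lists gave 472 alternative values. Of these, 467 stayed within the scanner range of the reported value, 5 moved beyond it and 0 called differences reversed. The 467 include values that an alternative could not change, as for genes with 1 probe under the mean over probes. Signs of smaller differences turned in 1 of 9 members and 15 of 50 other genes.

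Counts over all genes moved more. The genes higher and lower in Ad-378 were 178 and 1188 under normexp correction with the local background, 191 and 339 under normexp on the raw signal, 222 and 394 with series matrix values, 1058 and 1165 with no filter on background, 1255 and 1723 at 1.5-fold, and 106 and 201 at 3-fold, against 405 and 646 as reported. The local-background correction moved the median of all genes to -0.15, against 0.04 as reported, and its fitted background mean was -10.6 in Ad-378 and -175 in Ad-Ctrl. The highest local background was 144 in Ad-378 and 6305 in Ad-Ctrl, while fits on the raw signal gave 30.6 in Ad-378 and 31.4 in Ad-Ctrl. The cause of these shifts in the counts and the median was not tested. Signals under 11.3 in Ad-378 and 15.2 in Ad-Ctrl were below any detected gene, which leaves Per3, Npas2 and Bhlhe41 without a level. No paired analysis was possible because the groups hold only replicate 1 each.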

Other observations

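Further rhythmic outputs, picked after their values were seen, are given as values. Noct and Nampt, both known targets of ARNTL and CLOCK in mice, lay lower in Ad-378. Noct, encoding the phosphatase nocturnin, had 8512 in Ad-378 and 13745 in Ad-Ctrl, a difference of -0.49. Nampt, the enzyme that recycles NAD, had 3308 in Ad-378 and 5125 in Ad-Ctrl, a difference of -0.43. Gys2, the glycogen synthase of liver, lay higher, with 26689 in Ad-378 and 17606 in Ad-Ctrl, a difference of 0.80. Cyp7a1, the rate-limiting enzyme of bile acid synthesis and a rhythmic liver gene, had 9693 in Ad-378 and 14726 in Ad-Ctrl, a difference of -0.40 that lay at the edge of the scanner range. Cirbp, an RNA-binding protein whose transcript follows body temperature, had 2915 in Ad-378 and 2906 in Ad-Ctrl, a difference of 0.21.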
